A study of Mus musculus with 6 samples.

Results

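The contacts of the Bahd1 promoter were examined in promoter-capture Micro-C of E14 mouse embryonic stem cells (E14TG2a), a wild-type line from a male mouse grown in serum and LIF on gelatin. In this assay chromatin is cut by micrococcal nuclease, ligated and enriched for fragments, called baits, that carry gene starts. All cells were transfected with esiRNA (enzymatically diced double-stranded RNA that silences a matching transcript) and taken 48 h later. The 3 groups of 2 libraries received esiRNA against Ino80, the ATPase of the INO80 remodeller (Ino80KD), against Smarca4, which encodes Brg1, the ATPase of the esBAF remodeller (Brg1KD), or against EGFP (Control). Replicate 1 of each group was in batch 1, replicate 2 of both depletions in batch 3, and Control replicate 2 in batch 2. The labels do not state whether a group's 2 libraries were grown apart, and their spread may be technical only. These libraries hold DNA contacts and no RNA, so neither the extent of each depletion nor the marker genes of the cell type were checked here.

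Members were the baits overlapping the RefSeq body of Bahd1 (chr2:118900336-118924528, build mm10, GRCm38.p6) or lying within 2 kb of it, which were 2 of 19083 baits. The first (chr2:118899257-118902116) holds the Bahd1 start and is called the promoter bait. It also overlaps Gm32957, a long noncoding RNA gene, whose contacts cannot be told apart from those of Bahd1. The other (chr2:118925376-118927235) lies 0.848 kb past the gene's far end and carries Chst14, a sulfotransferase gene of dermatan sulfate synthesis, so it belongs to Bahd1 by distance alone. The nearest bait left out, that of Ivd, an enzyme of leucine breakdown, was 38.1 kb away. Baits here are fragments that are the first end of a listed loop or have an entry in the authors' deposited tables. A captured fragment with neither is not counted. Over the 6 libraries the promoter bait had 24 listed same-chromosome loops, the Chst14 bait had 1 and the Ivd bait had 2. Bahd1 was chosen because its values in Ino80KD against Control were already known, so what follows is description and carries no test.

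BAHD1 is a chromatin protein with a bromo-adjacent homology domain. In human cells it promotes the formation of heterochromatin, gathering HP1, histone deacetylases and methyltransferases at silenced genes, and its domain reads the histone mark laid down by polycomb complexes. A promoter's contacts are usually sought because distant enhancers and other promoters can act through them.

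The promoters that carry the main contacts are shown from RefSeq (GRCm38.p6), each from 250 bases before to 50 bases after the gene start and written 5′ to 3′ along the gene's strand. They are those of Bahd1 (chr2:118901365-118901664, plus strand), which is on the promoter bait, of Ankrd63 (chr2:118703914-118704213, minus strand), which is on the bait at the other end of its highest-scoring loop, and of Inafm2 (chr2:118745508-118745807, plus strand), which lies in a contacted fragment without a bait. The Bahd1 start used for its window was position 118901615, which lies inside the gene body given above and not at its first base. Capitals mark GGGCGG, the SP1 box, or CCGCCC, the same box on the other strand.
Bahd1: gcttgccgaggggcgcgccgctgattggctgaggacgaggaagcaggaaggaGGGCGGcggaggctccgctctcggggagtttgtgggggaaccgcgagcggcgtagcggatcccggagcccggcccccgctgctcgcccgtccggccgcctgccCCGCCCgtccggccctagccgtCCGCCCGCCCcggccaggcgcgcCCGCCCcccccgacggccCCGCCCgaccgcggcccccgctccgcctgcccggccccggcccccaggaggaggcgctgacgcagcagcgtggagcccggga
Ankrd63: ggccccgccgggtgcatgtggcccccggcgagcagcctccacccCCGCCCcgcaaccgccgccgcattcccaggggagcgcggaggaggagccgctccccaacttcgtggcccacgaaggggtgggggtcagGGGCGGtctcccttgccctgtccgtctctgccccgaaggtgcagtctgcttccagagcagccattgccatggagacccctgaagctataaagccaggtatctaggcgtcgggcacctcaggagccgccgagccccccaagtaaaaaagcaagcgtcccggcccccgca
Inafm2: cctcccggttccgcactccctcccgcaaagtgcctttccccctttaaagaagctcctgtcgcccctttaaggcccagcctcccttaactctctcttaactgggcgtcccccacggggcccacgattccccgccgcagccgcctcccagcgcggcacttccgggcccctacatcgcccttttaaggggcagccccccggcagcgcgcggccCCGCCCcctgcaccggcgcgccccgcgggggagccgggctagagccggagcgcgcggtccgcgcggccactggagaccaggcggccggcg
The Bahd1 window held 45 CpG dinucleotides, more than 98.1% of the 32851 promoter windows in the table, whose median was 7. The Ankrd63 window held 24 and the Inafm2 window 35. GGGCGG was found 6 times in the Bahd1 window, counting both strands and overlapping matches, 2 times in that of Ankrd63 and 1 time in that of Inafm2. Of all windows, 35.7% held it. GCCATNTT (YY1), found in 6.05% of all windows on either strand, and GGNGGCAG (a CTCF core), found in 12.6%, had no match in these 3 windows. The window of the Pak6 start on the contacted Pak6 bait (chr2:118676996-118677295, plus strand) held 1 match of GGNGGCAG, none of GCCATNTT, 2 of GGGCGG and 35 CpG dinucleotides. A match is a description of letters and not a bound site.

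The loops of the promoter bait pointed almost entirely to one side, to a block of genes before it on the chromosome. Each library has its own deposited loop list, in which every loop carries the authors' interaction score of at least 5. The 6 lists held 12313 to 15385 same-chromosome loops, and their depth in reads is unknown. By identical ends the Bahd1 baits formed 9 distinct loops of 49931 in the union of the lists. Of these, 8 reached fragments 151 to 251 kb before the bait, between positions 118640001 and 118760000. They covered Bub1b, a mitotic checkpoint kinase gene, Pak6, a p21-activated kinase gene, Ankrd63, which encodes an ankyrin repeat protein, Plcb2, a phospholipase C gene of taste signalling, Inafm2 and Ccdc9b. The other loop, to the bait of the Notch ligand gene Dll4, lay 425 kb on the far side and was listed in Control replicate 1 only, with a score of 5.88. Where a loop is missing from a list, its score was below that minimum or was not computed, which does not show that the contact was absent.

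**Figure D1:**
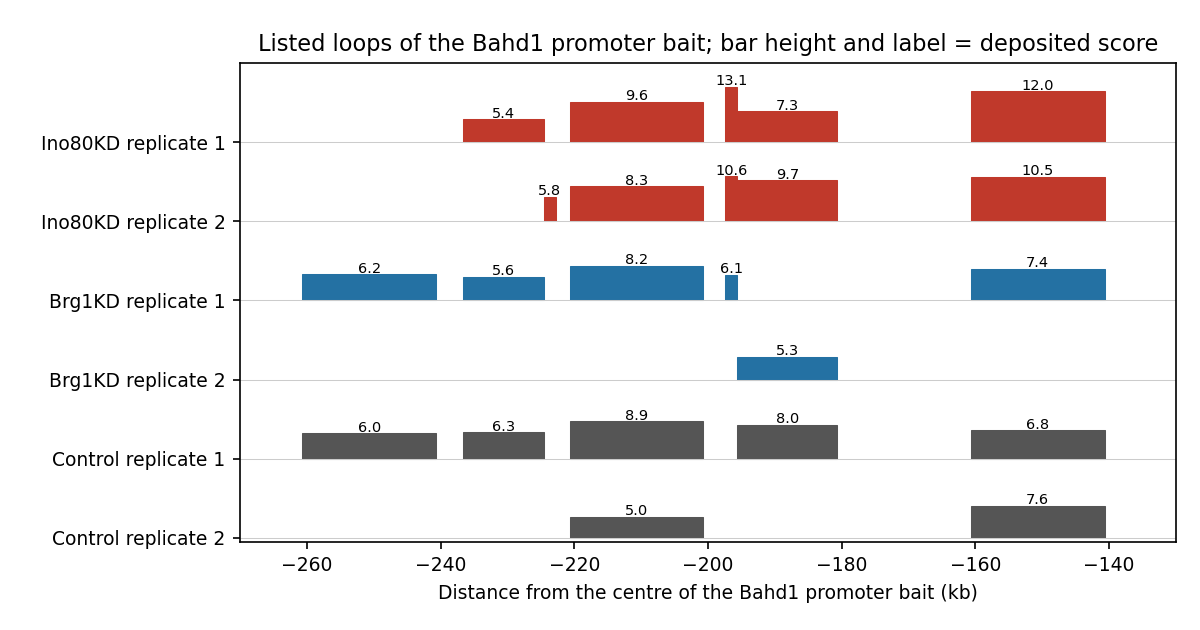
Loops of the Bahd1 promoter bait that lie before it, by library; the x axis is the distance from the bait centre in kb, a bar spans the contacted fragment, and its height and label give the deposited score. Both Ino80KD libraries show 5 bars, while Brg1KD replicate 2 shows 1 and Control replicate 2 shows 2.

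The number of Bahd1 loops differed as much between replicates as between groups. It was 5 and 6 in the Ino80KD libraries, 5 and 1 in Brg1KD, and 6 and 2 in Control, with replicate 1 first. Per 1000 same-chromosome loops this was 0.339 (95% Wilson interval 0.145 to 0.793) and 0.423 (0.194 to 0.923) in Ino80KD, 0.406 (0.173 to 0.950) and 0.0767 (0.0135 to 0.435) in Brg1KD, and 0.390 (0.179 to 0.851) and 0.138 (0.0380 to 0.505) in Control. These intervals cover counting error only, and they overlap between all 6 libraries. The means were 0.381 ± 0.0597 in Ino80KD, 0.241 ± 0.233 in Brg1KD and 0.264 ± 0.178 in Control (SD, n = 2 each).

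The low values belonged to Brg1KD replicate 2 and Control replicate 2. The difference of Ino80KD minus Control was 0.117 per 1000, and it was -0.00884 without Control replicate 2, 0.243 without Control replicate 1 and 0.0747 without Ino80KD replicate 2. Within batch 1, which holds 1 library per group, it was -0.0511. Brg1KD minus Control was -0.0228, but 0.142 without Brg1KD replicate 2, 0.103 without Control replicate 1, -0.187 without Brg1KD replicate 1, -0.149 without Control replicate 2 and 0.0161 within batch 1. Ino80KD minus Brg1KD was 0.140, but -0.0249 without Brg1KD replicate 2, 0.304 without Brg1KD replicate 1, -0.0671 within batch 1 and 0.347 within batch 3. The median listed bait had 1 loop in every library, and the promoter bait had more loops than 94.9% and 94.5% of listed baits in Ino80KD, 96.6% and 0% in Brg1KD, and 97.3% and 60.3% in Control.

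The promoter bait's loops with a score of at least 7 were most numerous in the Ino80KD libraries. Of the promoter bait's loops, 4 and 4 scored at least 7 in Ino80KD, 2 and 0 in Brg1KD, and 2 and 1 in Control. Both Ino80KD libraries were thus above both Control libraries. Of 6735 baits with such a loop in any library, 4.35% had both Ino80KD libraries above both Control libraries, and 4.39% had both below. Bahd1 was chosen on the same contrast, so nothing is read from this count.

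The contact with Ankrd63 had the highest score of all Bahd1 loops. It joins the promoter bait to a bait 197 kb away (chr2:118703224-118705083) that carries the Ankrd63 start and the far end of Plcb2. Its score was 13.1 and 10.6 in the Ino80KD libraries and 6.09 in Brg1KD replicate 1, and it was not listed in Brg1KD replicate 2 or in either Control library. Whether scores are on one scale in all lists is not stated, so ranks within a list are given too. In Ino80KD replicate 1 the score exceeded 97.8% of same-chromosome loops, in Ino80KD replicate 2 95.4%, and in Brg1KD replicate 1 56.0%. Among all 49931 loops, 1.96% appeared in both Ino80KD libraries and neither Control library, and 2.18% the other way round.

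Loops to the fragments on either side of that bait were in Control lists too. The fragment with the end of Pak6 and part of Ankrd63 (118680001 to 118700000) was listed at 9.59 and 8.33 in Ino80KD, at 8.19 in Brg1KD replicate 1, and at 8.91 and 5.03 in Control. The Plcb2 fragment (118705084 to 118720000) was listed at 7.35 and 9.70 in Ino80KD, at 5.35 in Brg1KD replicate 2, and at 7.97 in Control replicate 1. So the block itself was contacted in all 3 groups, and the Ankrd63 bait within it was listed in the depletions only, in 3 of 4 libraries.

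The contact nearest to the Bahd1 start was the fragment of Inafm2, a small membrane protein gene, and Ccdc9b (118740001 to 118760000), 151 kb away. Its score was 12.0 and 10.5 in Ino80KD, 7.43 in Brg1KD replicate 1, and 6.76 and 7.64 in Control. It was missing only from Brg1KD replicate 2. Within its own list it exceeded 97.1% and 95.2% of same-chromosome loops in Ino80KD, 82.4% in Brg1KD replicate 1, and 69.2% and 83.3% in Control. The same fragment was the 1 contact of the Chst14 bait, at 5.17 in Ino80KD replicate 2.

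Weaker contacts lay farther out. A Pak6 fragment (118664043 to 118676108) was listed at 5.38 in Ino80KD replicate 1, at 5.58 in Brg1KD replicate 1 and at 6.28 in Control replicate 1. The neighbouring Pak6 bait was listed in Ino80KD replicate 2 alone, at 5.77. The Bub1b fragment, the farthest of the block, was listed at 6.15 in Brg1KD replicate 1 and at 5.99 in Control replicate 1, and in neither Ino80KD library. All of these scores lie close to the minimum of 5.

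The authors' deposited tables compare each depletion with Control over wider regions. No header states the direction. It was read from the loop lists: loops in both Ino80KD libraries and neither Control library had a mean log2 fold change above 0 in the authors' deposited table at 86.6% of 1014 bait ends with an entry, and loops in both Control libraries alone at 15.9% of 1088. For Brg1KD these shares were 83.9% of 737 and 17.5% of 1362, so a positive value is read as a stronger contact in the depleted cells. Each entry has a mean normalized signal over libraries, and none has values per library.

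After Ino80 depletion all 6 entries of the promoter bait in the authors' deposited table were above 0, and the values were larger for regions nearer to the gene. The region from 118580001 to 118680000, over Bub1b and Pak6, had a log2 fold change of 0.18 ± 0.28 (SE) in the authors' deposited table. The region from 118660001 to 118729479, over Pak6, Ankrd63 and Plcb2, had 0.47 ± 0.23 in the authors' deposited table. The region from 118676109 to 118761921, which adds Inafm2 and part of Ccdc9b, had 0.63 ± 0.20 and an unadjusted p of 0.00184 in the authors' deposited table, the 2nd smallest of its 34774 entries. The nearest region, from 118703224 to 118778598, had 0.65 ± 0.21 and an unadjusted p of 0.00211 in the authors' deposited table. Regions overlap and share contacts, so these are not separate measurements. Bahd1 was chosen with these values known, so nothing is read from the rank of an entry.

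Of the 6 entries, 4 in the authors' deposited table were higher at an unadjusted p under 0.05, where 0.912% of all entries were higher and 0.382% lower at that p. Bahd1 was chosen by these values and nothing is read from the count. In the authors' deposited table each had an adjusted p of 1.00, and 0% of all entries passed 0.05 after adjustment. The Chst14 bait's entry over the nearest region was 0.16 ± 0.30 (p = 0.592) in the authors' deposited table, with a mean signal of 73.8 against 180 for the promoter bait over the same region.

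After Brg1 depletion all 5 entries of the promoter bait in the authors' deposited table were below 0, and each was smaller than its error or close to it. They ran from -0.32 ± 0.32 over Bub1b and Pak6 to -0.14 ± 0.24 over the nearest region in the authors' deposited table. The smallest unadjusted p was 0.306 and every adjusted p was 1.00. Of all 33243 entries of the authors' deposited table, 51.3% were below 0. At an unadjusted p under 0.05, 0 of the 5 passed, where 0.373% of all entries were higher and 0.827% lower. Both depletions were set against the same Control libraries, so a Control value that is high or low enters both comparisons.

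**Figure D2:**
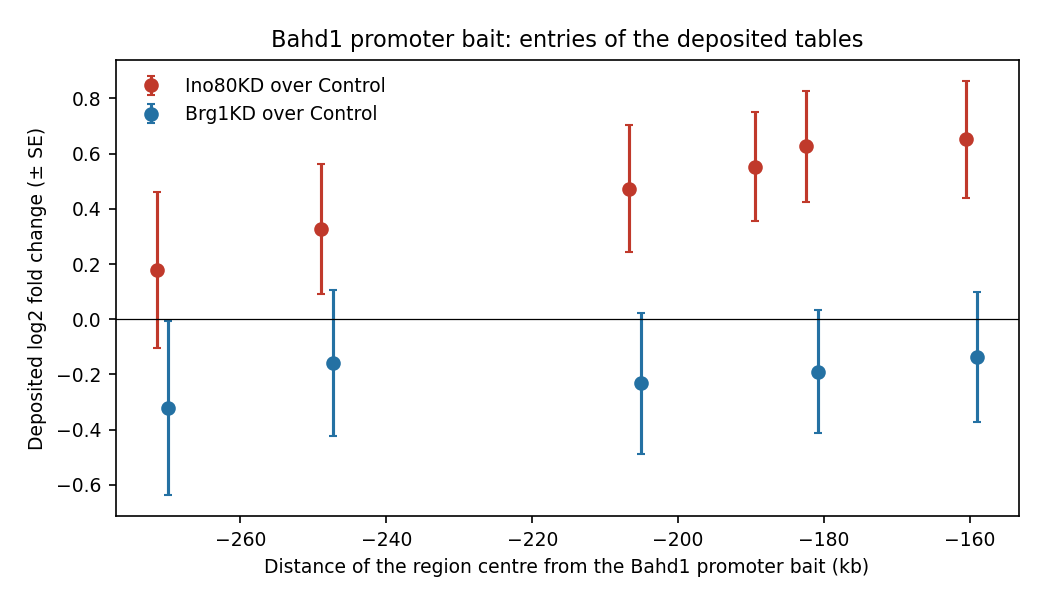
Log2 fold change with its SE for each entry of the Bahd1 promoter bait in the authors' deposited tables, against the distance of the region centre from the bait in kb. Ino80KD over Control lies between 0.18 and 0.65 and Brg1KD over Control between -0.32 and -0.14; the regions overlap.

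The block was also seen from its own baits, which read partly the same ligations in the same libraries. Of the entries whose region holds the whole promoter bait, 17 of 18 from 8 baits were above 0 for Ino80KD in the authors' deposited table, where 50.4% of all entries were. Many of these entries overlap one another, and all hold the bait of a gene chosen on the same contrast, so nothing is read from this count. The weighted mean of these entries was 0.22, less than the 0.50 over the promoter bait's own entries. The Ankrd63 bait had 0.37 to 0.44 over 4 entries in the authors' deposited table, with a smallest unadjusted p of 0.0765. The Pak6 bait at 118662183 had 0.34 to 0.42 over 3 entries, the other Pak6 bait 0.18 to 0.27 over 3, and the Plcb2 bait at 118727620 0.12 to 0.29 over 3 in the authors' deposited table. Ccdc9b had 0.02 to 0.05 over 2 entries, and Disp2 had 0.06 in the authors' deposited table. The entry below 0 was that of the Phgr1 bait, at -0.0078 ± 0.24, and the Gpr176 bait had 0.15 ± 0.45.

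For Brg1KD, 9 of 10 such entries from 6 baits were below 0 in the authors' deposited table, with a weighted mean of -0.18. They overlap too, and nothing is read from their count. The lowest, at the Plcb2 bait, was -0.34, and its smallest unadjusted p in the authors' deposited table was 0.178. No entry of either set passed 0.05 before adjustment.

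Loops listed from those baits landed mostly on the fragment just before the promoter bait (118880001 to 118899256), where the gene Ivd ends. The Ankrd63 bait was joined to it in every library, at 18.1 and 11.6 in Ino80KD, 10.45 and 5.57 in Brg1KD, and 13.5 and 9.08 in Control. The Ccdc9b bait was too, at 9.36 and 12.1 in Ino80KD, 7.66 and 7.21 in Brg1KD, and 10.1 and 8.90 in Control. These contacts were therefore listed in every group, with the lowest score of each in Brg1KD replicate 2.

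The fragment after the promoter bait (118902117 to 118920000) lies within the Bahd1 body. It had 4 and 3 same-chromosome loops in Ino80KD, 0 and 0 in Brg1KD, and 2 and 0 in Control, from baits of Pak6, Ankrd63, Plcb2 and Ccdc9b. Both Ino80KD libraries were above both Control libraries. Of 20703 fragments without a bait, 3.8% had both Ino80KD libraries above both Control libraries and 4.45% had both below. Nothing is read from this count either, since Bahd1 was chosen on the same contrast. Counting the bait and all fragments from 118880001 to the end of the gene, other baits had 12 and 11 loops in Ino80KD, 5 and 3 in Brg1KD, and 9 and 4 in Control.

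Among the 45 other protein-coding genes within 1 Mb, those nearest to Bahd1 in value for Ino80KD were some of its partners in these contacts. Entries of such partners partly read the same ligations as those of Bahd1. Of the 45 genes, 33 had a bait and 24 had an entry for Ino80KD in the authors' deposited table. The weighted mean of a gene's entries was above 0 at 16 and below 0 at 8, with a median of 0.06, beside 0.0033 over all 12041 genes with an entry. Bahd1, at 0.47 ± 0.09 (SE) with both baits, was above all 24, and 1.95% of all genes were higher. Bahd1 was chosen by these values, so nothing is read from its rank. The errors of these weighted means take overlapping entries as independent and are too small. Ankrd63 was at 0.37 ± 0.11, Pak6 at 0.30 ± 0.08 and Plcb2 at 0.29 ± 0.08. The other contacted genes with an entry were Dll4 at 0.22, Bub1b at 0.0035 and Ccdc9b at -0.03, and Ivd was at -0.03. Knstrn, which lies between Plcb2 and Bahd1 and had no Bahd1 loop, was close to Plcb2, at 0.28 ± 0.40 from 1 entry. On the other side, Knl1, a kinetochore scaffold gene, was at -0.51 ± 0.25, with 1 entry in the authors' deposited table that passed 0.05 before adjustment. Chst14 is among the neighbours through a bait counted for Bahd1 too, and Ankrd63 and Plcb2 share a bait. No neighbour had a higher entry at that p, where 2.29% of all genes did. Lower entries at that p were found at 2 of the 24, where 0.789% of all genes had one.

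For Brg1KD, 26 neighbours had an entry in the authors' deposited table, 9 above 0 and 17 below, with a median of -0.08 beside -0.02 over all genes. Bahd1 was at -0.20 ± 0.11, and 4 of the 26 were lower, Bub1b at -0.47 ± 0.30 being the lowest. None had an entry that passed 0.05 before adjustment, where 0.852% of all genes had a higher and 1.67% a lower one. Ino80, the gene targeted in 1 of the groups, lies 449 kb past Bahd1 on the same chromosome. No bait with a listed loop or an entry lay on it, which does not show that its promoter was not captured. No Bahd1 loop reached it.

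**Figure D3:**
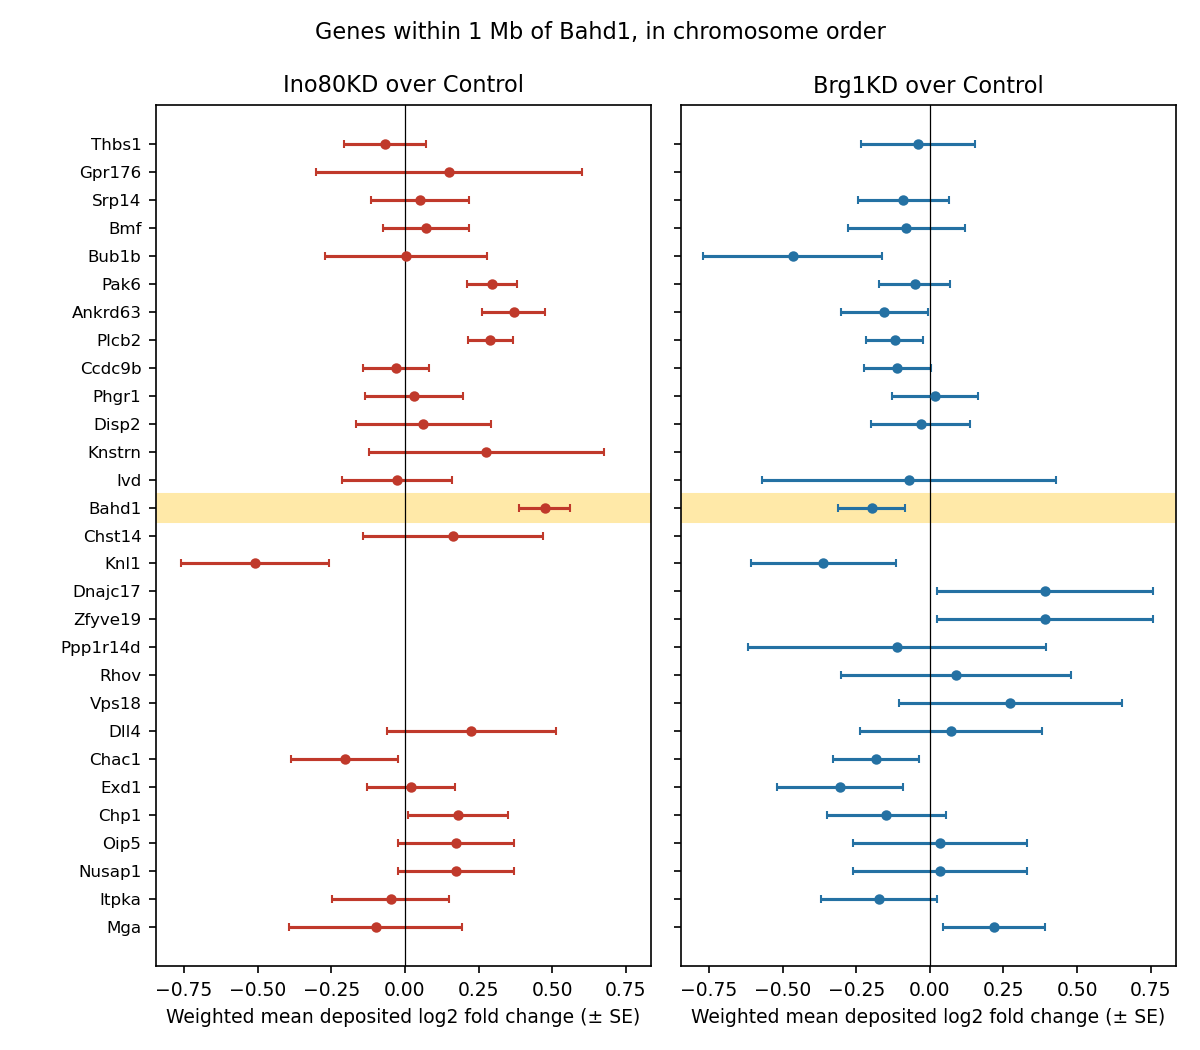
Weighted mean log2 fold change of each gene's entries in the authors' deposited tables, for Bahd1 (shaded) and genes within 1 Mb that have an entry, in chromosome order; error bars are SEs that take overlapping entries as independent and are too small. Bahd1, chosen by these values, has the highest for Ino80KD over Control, followed by Ankrd63, Pak6 and Plcb2. The genes between Plcb2 and Bahd1 have lower values, though Knstrn, with a wide error, is close to Plcb2.

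Listed genes of heterochromatin and of BAHD1 partners showed no common direction after Ino80 depletion. Of 25 genes of heterochromatin and of known BAHD1 partners, 19 had a bait and 13 an entry for Ino80KD in the authors' deposited table, with 7 weighted means above 0 and a median of 0.0013. That is 53.8% above 0, beside 50.7% of all genes. Kmt5c, a histone H4 methyltransferase gene, was at 0.38 ± 0.18 and was the 1 gene of 13 with an entry past 0.05 before adjustment, a higher one, where 2.29% of all genes had a higher and 0.789% a lower one. The highest member was Suv39h1, a histone H3 methyltransferase gene, at 0.48 ± 0.63 from 1 entry, and the lowest was Daxx, a histone chaperone gene, at -0.30 ± 0.66 from 1 entry. Ehmt2, which encodes the methyltransferase G9a, was at 0.41 ± 0.13 over 10 entries. Mier2, whose protein family joins BAHD1 to histone deacetylases in human cells, was at 0.0013 ± 0.11 over 14. Its relative Mier1 and the deacetylase genes Hdac1 and Hdac2 had a bait and no entry, so the list says little about these partners. For Brg1KD 9 members had an entry, 2 of them above 0 and 7 below, with a median of -0.08, which is 22.2% above 0 beside 46.3% of all genes. Atf7ip, a cofactor of the methyltransferase SETDB1, was at -0.46 ± 0.09 with 4 of its 8 entries in the authors' deposited table lower and past 0.05 before adjustment, where 0.827% of all entries were. It was the 1 member of 9 with such an entry, beside 1.67% of all genes. Tasor, a gene of the HUSH silencing complex, was at -0.37 ± 0.23. Cbx5, which encodes HP1 alpha, was at -0.34 ± 0.24, and Trim28, a corepressor gene, at -0.28 ± 0.31. Ehmt1 and Ehmt2 were the members above 0, at 0.08 ± 0.10 and 0.08 ± 0.23.

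Of 10 genes of other proteins with a bromo-adjacent homology domain, 8 had an entry in each of the authors' deposited tables. For Ino80KD 5 were above 0, with a median of 0.08, and only Mta2, a deacetylase complex gene at 0.19 ± 0.09, had entries past 0.05 before adjustment, 2 higher ones, so it was 1 gene of 8, beside 2.29% of all genes with a higher and 0.789% with a lower entry. The lowest was Ash1l, a histone methyltransferase gene, at -0.29 ± 0.13. For Brg1KD 6 were below 0, with a median of -0.13, and 0 of 8 had such an entry, beside 0.852% of all genes with a higher and 1.67% with a lower one. The lowest was Orc1, a gene of the origin recognition complex, at -0.45 ± 0.22. Dnmt1, the maintenance DNA methyltransferase gene, was at 0.26 ± 0.08 for Ino80KD and 0.05 ± 0.08 for Brg1KD.

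By its loops per 1000 over the 6 libraries, Bahd1 was most like Clip3, Tceanc, Niban3, Impdh2 and Mfge8 among 2981 genes with at least 10 listed loops. Their Pearson correlations with it were 0.980, 0.978, 0.973, 0.964 and 0.961. These genes are on other chromosomes. Impdh2, an enzyme gene of guanine nucleotide synthesis, had 4 and 4 loops in Ino80KD, 3 and 1 in Brg1KD, and 4 and 2 in Control. Clip3, which encodes a microtubule-binding protein, had 3 and 4 in Ino80KD, 4 and 0 in Brg1KD, and 4 and 0 in Control. What they share with Bahd1 is the low count in Brg1KD replicate 2 and Control replicate 2. All points come from the same 6 libraries and their list lengths, and 20 genes had a correlation above 0.9.

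A bait on another chromosome was listed against the same block in every library. It carries the genes Mrpl49, of the mitochondrial ribosome, and Fau, which encodes a ubiquitin-like protein fused to a ribosomal one (chr19:6056768-6058871). Only loops in which it was the first-listed end were counted. These were 28 and 24 in Ino80KD, 27 and 33 in Brg1KD, and 27 and 29 in Control. All of these counted loops reached chromosome 2, except 1 loop in each Brg1KD library. Its score with the Inafm2 and Ccdc9b fragment was 561 and 536 in Ino80KD, 489 and 575 in Brg1KD, and 679 and 599.8 in Control. At most 10 of the 3501 to 5254 interchromosomal loops of a library scored higher. With the fragment just before the Bahd1 promoter bait it scored 148 and 94.8 in Ino80KD, 56.7 and 41.1 in Brg1KD, and 108 and 71.7 in Control. With the fragment after the bait, in the Bahd1 body, it scored 69.95 and 5.65 in Ino80KD, 49.2 and 34.0 in Brg1KD, and 47.4 and 7.19 in Control, so the groups did not keep one order. With the promoter bait itself it was listed in Ino80KD replicate 1 alone, at 27.5, as the second-listed end and so outside the counts above. The part of this signal in the same-chromosome contacts of Bahd1 was not tested. Whether these loops are contacts between chromosomes or come from where sequence lies in the genome of this line was not tested either.

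**Figure D4:**
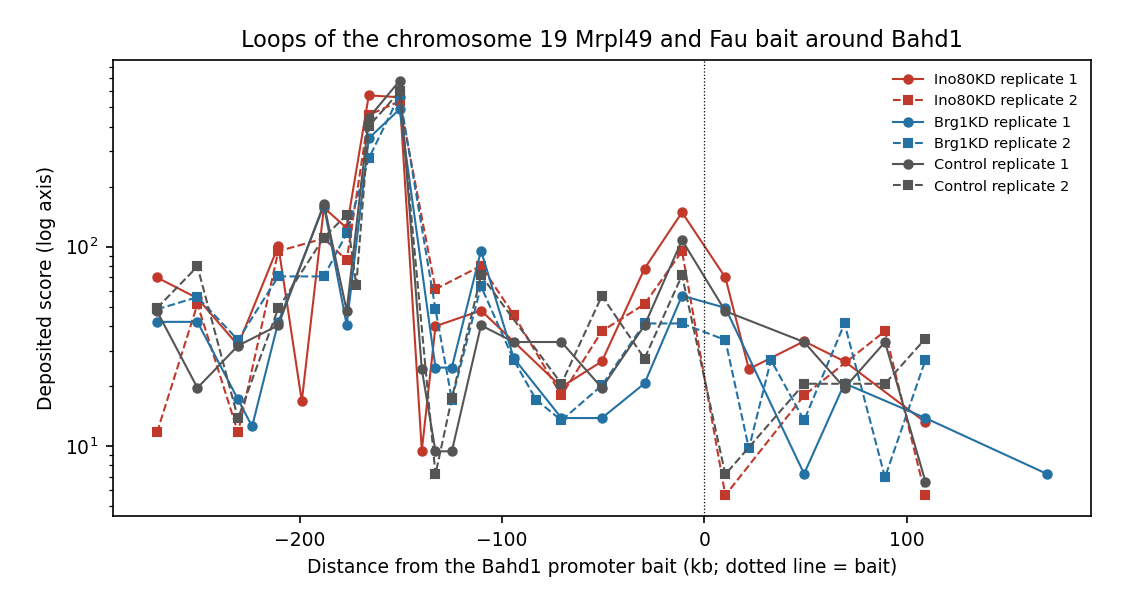
Deposited scores, on a log axis, of the loops between the chromosome 19 bait of Mrpl49 and Fau and fragments around Bahd1, by library, against the distance from the Bahd1 promoter bait in kb (dotted line). Only loops with the chromosome 19 bait as first-listed end are drawn, which leaves out its loop with the promoter bait in Ino80KD replicate 1. Ino80KD replicate 1 is highest at -166 kb and the other libraries at -151 kb, and the fragment just before the bait stands at 41.1 to 148.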

How the data were processed

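The submitters' processing notes name bedtools and build mm10, and the sources used here do not name the caller. The authors deposited, for each library, a loop list with a score per loop. Their table for each depletion against Control holds, per the file headers, a mean signal, log2 fold changes, their errors, a statistic (a score) and a p-value, raw and adjusted. No deposited file gives reads per library, so depth is unknown and no count test was run. Lists pooled by group hold positions only and were not used.

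Here, loops were counted per library in Python 3.11.15 with pandas 2.3.3, with 95% Wilson intervals. An exact permutation test of 2 against 2 libraries cannot go below p = 0.33, and none was run. A gene's entries were averaged by inverse variance, a step tested per bait on simulated data. The simulated entries were independent, so that test does not bear on the errors of overlapping entries. Genes and promoters came from RefSeq (GRCm38.p6). Bahd1, the lists and the thresholds were chosen with earlier results of these data known. Named genes were those on contacted regions, those on baits with an entry that holds the promoter bait, and the 5 most alike in loops. Neighbours and list members with extreme values or an entry past 0.05 before adjustment were named too. Counts of neighbours include 1 gene that is not reported here. A few list members were picked out after their values were seen.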

Additional observations from a re-analysis of the deposited data

How the results depend on the processing

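No paired analysis was possible because each depletion shares only batch 1 with Control, and no test was run that could take a block. Ino80KD and Brg1KD share batches 1 and 3, where their differences in Bahd1 loops per 1000 were -0.0671 and 0.347. The difference in Bahd1 loops per 1000, main value first, was 0.117 for Ino80KD minus Control, and -0.00884 to 0.243 when each library was left out in turn. It was -0.0228 for Brg1KD minus Control, with -0.187 to 0.142, and 0.140 for Ino80KD minus Brg1KD, with -0.0249 to 0.304. Batch 1 alone turned all 3 signs, giving -0.0511, 0.0161 and -0.0671 in that order. With only loops of a score of at least 7, both for Bahd1 and in the denominator, Ino80KD minus Control was 0.675, Brg1KD minus Control -0.0350 and Ino80KD minus Brg1KD 0.710. The bait rule without its 2 kb, all loops as the denominator and leaving 1 chromosome 2 bait out of the denominator kept the sign of all 3. The cause of these changes was not tested, beyond the few loops that 1 library adds or removes. Under 4 alternatives for each depletion, the average log2 fold change from the authors' deposited tables was 0.47 to 0.50 for Ino80KD and -0.20 to -0.19 for Brg1KD. All 7 Ino80KD entries were above 0 and all 5 Brg1KD entries below 0, so no alternative could change the sign. Some alternatives removed no entry and gave the main value again. With identical ends, 0 of 9 Bahd1 loops were in every library. With ends matched within 5 kb, 5 of 9 had a match in every library, partly through loops of the neighbouring fragment. Brg1KD replicate 2 listed only 1 loop of a Bahd1 bait, so its matches include loops with no Bahd1 bait at either end. The count of 5 therefore describes the block and not Bahd1 loops alone. Scores near the minimum of 5 and unknown depth limit what an unlisted loop can show.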
